A study of Mus musculus with 6 samples.

Results

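Genes of the transforming growth factor beta (TGF-beta), bone morphogenetic protein (BMP) and activin pathway were followed between the embryonic mouse pancreas and adult islets. They were chosen by symbol, with earlier results of these data known, and made up 65 of the 37761 genes in the deposited table. The symbols cover ligands, receptors, Smads, secreted antagonists, latent TGF-beta binding proteins and Id genes. RNA sequencing covered 3 libraries of whole pancreas dissected from wildtype mice at e15.5 and 3 libraries of islets freed with collagenase from wildtype mice aged 12 weeks. Tissue, age and isolation change together between these groups and cannot be told apart, and in such bulk RNA fewer cells of a type and less RNA per cell cannot be told apart either. Since no label says that the libraries come from different animals, each p-value reflects the variation among these 6 libraries, and that variation could be technical.

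TGF-beta family ligands are secreted dimers that bring type I and type II serine/threonine kinase receptors together on the cell surface. The type I receptor then phosphorylates a receptor-regulated Smad, Smad2 or Smad3 for TGF-beta and activin and Smad1, Smad5 or Smad9 for BMPs, which enters the nucleus with the common partner Smad4. In the developing pancreas this family is known for signals between mesenchyme and epithelium, and in islets activins are known as locally made regulators of the endocrine cells.

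Values are the authors' normalized counts, in which 1 unit was about 1 read, given per library or as mean ± SD with n = 3 per group. A gene was tested when it reached 10 normalized counts in at least 3 libraries, and "rose" or "fell" means higher or lower in the islets at an adjusted p under 0.05 over all genes tested (limma-trend on log2(value + 1)). Log2 fold changes are islets over embryonic pancreas on that scale, where the change of a low gene comes out too small. Reads assigned to genes numbered 35059950 to 39713899 in the embryonic libraries and 41983532 to 47346870 in the islet libraries. The table's row for alignments of low quality held 0 reads in the third embryonic library and 1264897 to 2083120 in the others.

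The cell type markers of the samples shifted with the groups. All 8 beta cell markers rose, and their summed level was 6313 to 11259.5 in the embryonic libraries and 3941500.0 to 4655360.0 in the islet libraries. Mesenchyme markers fell for 10 of 10 genes, from summed levels of 158594 to 182380.0 down to 1379 to 2644, with Nkx3-2 at 0 in all islet libraries. Of 6 mesothelial markers 5 fell and Msln rose, and the list summed to 6230.3 to 7246 and 1601 to 3208. Nearly all of the islet sum was Msln, at 1737, 1587 and 3205 across the islet libraries. Lrrn4, the highest of the other 5 there, averaged 1043 at e15.5 and 6.29 in islets. Endothelial markers summed to 14934 to 16555 and 8646 to 11137, with 5 of 8 lower and 3 not called. The summed acinar markers were 92649 to 129077 at e15.5 and 271246 to 690955 in the islets, highest in the second islet library. Of the 8 acinar genes 5 rose, 1 was not called and 2, Ptf1a and Rbpjl, fell. All 5 erythroid markers fell, from 15668 to 22979.9 to 1084 to 1856, as did 5 of 6 neural crest and Schwann cell markers. Of 7 markers of other endocrine cells 5 rose, and Hhex and Ghrl fell. Duct markers were mixed, with 3 of 6 higher, 2 lower and 1 not called. Of 5 progenitor markers 4 fell and 1 rose, and of 6 macrophage and leukocyte markers 4 fell and 2 rose. The part of these marker shifts in the results that follow was not tested.

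Most of the pathway genes that changed were lower in the islets, while all tested activin and inhibin subunits were higher. Of the 65 genes 56 passed the filter on low values, and the other 9 (Bmp8a, Bmp10, Bmp15, Gdf2, Gdf3, Gdf5, Gdf7, Inhbc and Inhbe) averaged under 10 normalized counts in both groups. Among the 56, 12 rose (21.4%), 33 fell (58.9%) and 11 were not called. Over all 21653 genes tested, 72.8% were called, 36.2% as higher and 36.6% as lower. A fall of at least 2-fold was seen in 24 of the 56 (42.9%) against 25.5% of all genes, and a rise of at least 2-fold in 8 (14.3%) against 22.6%, where 48.1% of all genes passed in either direction. The median log2 fold change was −0.89 over the 56 genes and −0.03 over all genes tested. Library values did not overlap between the groups for 46 of the 56 (82.1%, against 77.1% of all genes). By the adjusted p of the authors' deposited table, which 62 of the 65 genes had, 12 of the genes were higher and 34 lower. There 53.3% of all 30597 genes with an adjusted p were called, a wider set than the 21653 tested here.

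**Figure D1:**
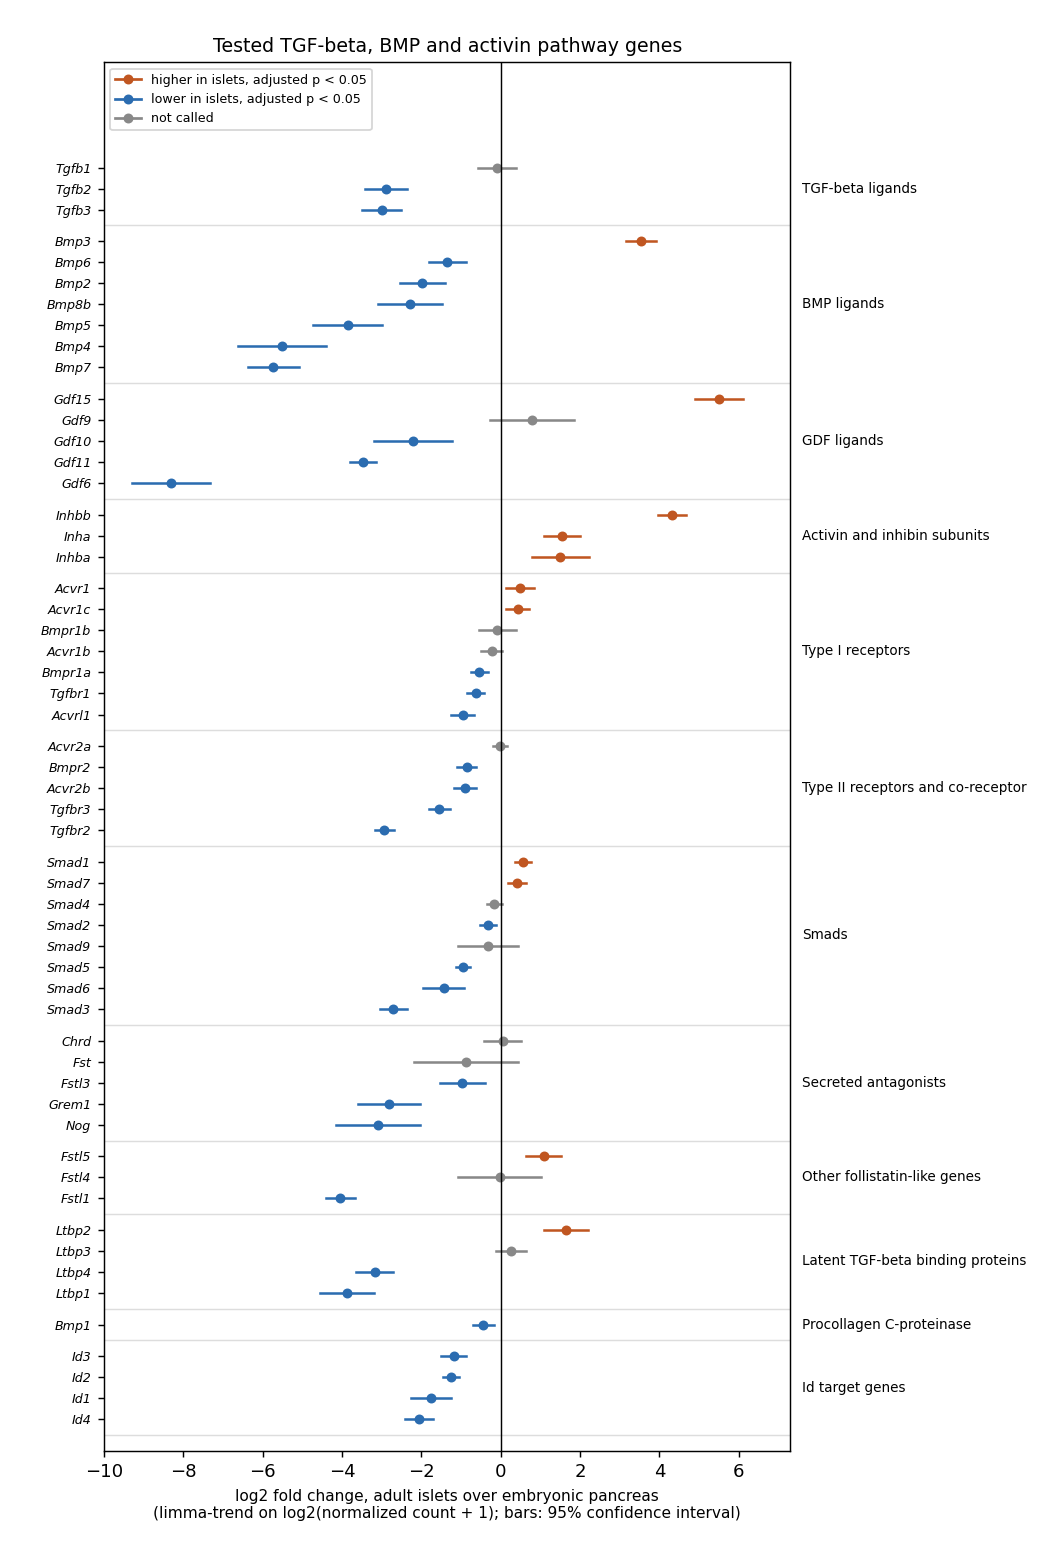
Log2 fold change, adult islets over embryonic pancreas (horizontal axis), of 55 of the 56 tested pathway genes, grouped by role, with points for the limma-trend estimate and bars for its 95% confidence interval. Orange genes rose, blue genes fell and grey genes were not called. Gdf6 lies farthest left at −8.31, and Gdf15 and Inhbb farthest right at 5.51 and 4.31.

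The TGF-beta ligand genes Tgfb2 and Tgfb3 fell, and Tgfb1 was not called. Tgfb3 stood at 641, 509 and 657 across the embryonic libraries against 95.6, 76.4 and 55.8 across the islet libraries, a 7.94-fold difference of the means (log2 fold change −3.0 with SE 0.22, adjusted p = 2.4e-06 by limma-trend). Tgfb2 stood at 738, 437 and 786 against 95.6, 85.3 and 74.0 (log2 fold change −2.89, adjusted p = 5.2e-06 by limma-trend). In both genes every embryonic library lay above every islet library, and the second embryonic library was the lowest of its group. Tgfb1, the form best known for immune and matrix regulation, averaged 169 ± 34.9 and 156 ± 22.1 (log2 fold change −0.10, 95% interval −0.57 to 0.38). Per kilobase of exon, Tgfb1 made up 10.3 ± 0.301% of the summed level of these ligands at e15.5 and 45.7 ± 3.04% in islets. Tgfb3 shares 12.4% of its exonic length with antisense genes, whose reads cannot be told apart without strand.

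Among BMP ligands 6 of 7 tested genes fell and Bmp3 rose. Bmp7, a ligand of many embryonic epithelia, stood at 1770.3, 2421 and 1762 across the embryonic libraries against 33.0, 56.5 and 24.7 in the islets. The group means lay 52.2-fold apart (log2 fold change −5.73 with SE 0.28, adjusted p = 2.4e-07 by limma-trend). Bmp4, known from early patterning of gut and mesenchyme, had 221, 183 and 258 against 6.59, 5.95 and 1.07, which is 13 islet reads in all (49.0-fold, 95% counting interval 28.5 to 92.5, for counting error only). Its log2 fold change was −5.52, and −4.92 without the third islet library. Bmp3, a divergent BMP that opposes other BMPs, went the other way, from 52.8, 51.1 and 65.4 to 593, 684 and 712 (11.7-fold, log2 fold change 3.54 with SE 0.16, adjusted p = 1.6e-07 by limma-trend).

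The remaining BMP genes tested were lower in every islet library than in any embryonic one. Bmp2, an osteogenic BMP, fell from 141 ± 20.1 to 35.5 ± 9.13, and Bmp6, a BMP with a known part in iron balance, fell from 228 ± 25.1 to 90.0 ± 19.7. Bmp5 fell from 169 ± 32.1 to 11.4 ± 5.17 and Bmp8b from 55.9 ± 7.31 to 11.3 ± 5.26. Bmp5 shares 46.7% of its exonic length with the antisense gene Gm26903. Bmp8b is a near copy of Bmp8a and shares 12.2% of its exonic length with the antisense genes Gm17244 and Ppie. The reads of both Bmp5 and Bmp8b are therefore uncertain. Bmp15, an oocyte ligand below the filter, had 27 embryonic reads and 2 islet reads (11.9-fold, 95% counting interval 3.001 to 104).

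The make-up of the BMP ligands differed as well. Per kilobase of exon, Bmp7 made up 64.8 ± 6.12% of the summed BMP level at e15.5 and 6.57 ± 2.26% in islets. Bmp3 made up 1.02 ± 0.201% and 63.4 ± 5.39% respectively, and Bmp6 was the next islet member at 16.3 ± 2.94%. The sum itself fell from 758 ± 70.1 to 142 ± 14.5 normalized counts per kilobase, a 5.35-fold difference of means with no overlap between groups (exact two-sided permutation, p = 0.1, which is as low as 3 libraries against 3 can give).

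The growth differentiation factor (GDF) genes that were called split between Gdf15, which rose, and Gdf6, Gdf10 and Gdf11, which fell. Gdf15, a stress-responsive and divergent member of the family, had 3.84, 4.17 and 4.91 across the embryonic libraries against 247, 285 and 195 in the islets (56.3-fold, log2 fold change 5.51 with SE 0.26, adjusted p = 2.0e-07 by limma-trend). Gdf6, a ligand of skeletal and eye patterning, had 678, 428 and 684 against 0, 0.992 and 2.15. It had 3 islet reads in all, so the size of its fall is uncertain (576-fold, 95% counting interval 197 to 2794). Gdf11, a ligand known to restrain endocrine progenitors in the embryonic pancreas, fell from 1102, 1215 and 1125 to 111, 84.3 and 113 (11.2-fold, log2 fold change −3.48, adjusted p = 9.5e-08 by limma-trend). Gdf10 fell from 132 ± 35.1 to 30.03 ± 14.9, and the oocyte factor Gdf9 was not called (11.4 ± 6.16 and 20.1 ± 9.05), except as higher under quantile normalization. Gdf11 and Gdf6 made up 58.4 ± 6.70% and 34.5 ± 6.73% of the GDF level per kilobase at e15.5, whereas Gdf15 made up 73.3 ± 2.98% of it in islets.

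**Figure D2:**
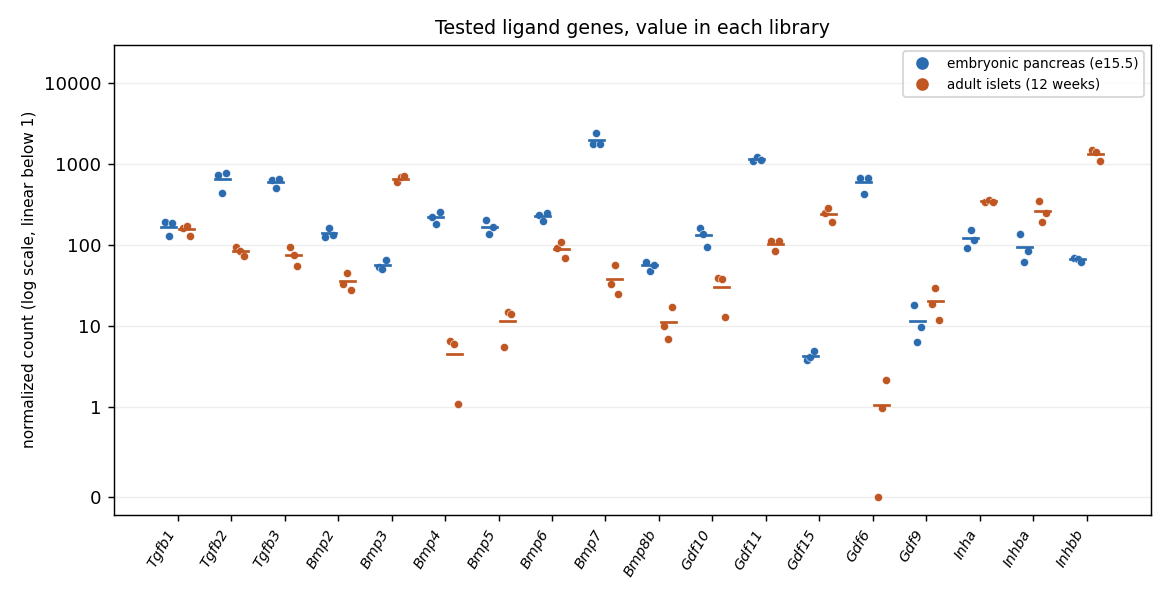
Normalized counts (vertical axis, log scale, linear below 1) of the 18 tested ligand genes in each library, blue for the 3 embryonic libraries and orange for the 3 islet libraries, with lines at the group means. Bmp3, Gdf15, Inha, Inhba and Inhbb lie higher in the islets without overlap, Tgfb1 and Gdf9 overlap between the groups, and the other 11 lie lower.

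All 3 tested subunit genes of activins and inhibins rose. Activins are dimers of beta subunits, encoded by Inhba and Inhbb, and inhibins pair a beta subunit with the alpha subunit encoded by Inha. Inhbb stood at 70.1, 66.8 and 62.1 across the embryonic libraries against 1517, 1427 and 1098 in the islets. This 20.3-fold rise exceeded the spread within either group (log2 fold change 4.31 with SE 0.15, adjusted p = 4.2e-08 by limma-trend). Inha rose from 93.2, 153 and 116 to 345, 361 and 336 (2.87-fold, log2 fold change 1.54, adjusted p = 9.4e-05 by limma-trend). Inhba rose from 137, 62.6 and 85.0 to 348, 193 and 251 (2.78-fold, log2 fold change 1.5, adjusted p = 0.0023 by limma-trend). In all 3 genes the lowest islet value lay above the highest embryonic value. Of the 2 activin beta genes, Inhbb made up 52.4 ± 9.09% of the level per kilobase at e15.5 and 88.4 ± 2.86% in islets. The summed level of both genes went from 30.5 ± 6.62 to 358 ± 57.3 normalized counts per kilobase. Inhbc and Inhbe, subunits best known from liver, had 9 and 6 embryonic reads and 2 and 5 islet reads.

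The 250 bases before the RefSeq start of Inhbb and Inhba are shown because these genes encode partners of the same dimers yet rose 20.3-fold and 2.78-fold. Both come from RefSeq on GRCm38.p6, read on the gene's strand, and neither touches an exon annotated in GENCODE M21. The Inhbb stretch is chr1:119422249-119422498 on the minus strand, directly before the gene (chromosome 1, 119415465 to 119422248). The Inhba stretch is chr13:16011601-16011850 on the plus strand, directly before the gene (chromosome 13, 16011851 to 16031621).
Inhbb: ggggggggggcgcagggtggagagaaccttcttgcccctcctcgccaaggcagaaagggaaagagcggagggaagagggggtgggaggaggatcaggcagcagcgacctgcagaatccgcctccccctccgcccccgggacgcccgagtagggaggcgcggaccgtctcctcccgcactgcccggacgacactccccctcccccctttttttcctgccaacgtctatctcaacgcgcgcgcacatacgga
Inhba: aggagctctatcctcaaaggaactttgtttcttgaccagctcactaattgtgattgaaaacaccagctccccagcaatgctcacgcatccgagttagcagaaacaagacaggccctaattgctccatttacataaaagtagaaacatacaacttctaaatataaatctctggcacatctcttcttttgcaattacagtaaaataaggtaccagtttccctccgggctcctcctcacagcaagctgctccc
The Inhbb stretch was 68% G and C with 21 CpG sites and that of Inhba 43.2% with 3. Neither held GGCGCC, a palindromic GC-rich element bound by Smad1 and Smad5, nor CAGAC on either strand, a core of the element bound by Smad3 and Smad4. The letters are all in lower case because no motif was found.

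None of the 7 type I receptor genes reached a 2-fold change on the authors' scaling with all libraries. Bmpr1a, a BMP receptor and the most abundant of them per kilobase, had 10724, 12116 and 11439 across the embryonic libraries against 7186, 7944 and 8362 in the islets (log2 fold change −0.55 with SE 0.09, adjusted p = 6.8e-04 by limma-trend), with a log2 fold change of −0.85 under quantile normalization. Tgfbr1, the type I receptor of TGF-beta, fell from 8129, 8392 and 7624 to 4756, 5093 and 5778 (log2 fold change −0.63). Acvrl1, an endothelial receptor of Gdf2 and Bmp10, fell from 793, 743 and 763 to 414, 443 and 333 (1.93-fold, log2 fold change −0.96, adjusted p = 1.3e-04 by limma-trend), and passed 2-fold without the second islet library (−1.04 on the log2 scale) and under upper quartile scaling (−1.22). The endothelial marker sum given above was 1.55-fold lower in the islets, and its part in this fall was not tested.

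Acvr1 and Acvr1c rose, but neither stayed called under every scaling of the libraries. Acvr1c, the receptor ALK7 that is known in islets, stood at 428, 507 and 427 against 553, 593 and 689 (log2 fold change 0.43, adjusted p = 0.014 by limma-trend). Acvr1, a BMP and activin receptor, stood at 578, 410.1 and 587 against 657, 751 and 769 (log2 fold change 0.48, adjusted p = 0.02 by limma-trend). Leaving the 20 most abundant genes of each group out of the scaling moved the median of all genes from −0.03 to −0.26, and there Acvr1c and Acvr1 came to 0.19 and 0.25 and were not called. Without the third islet library their adjusted p was 0.054 and 0.067 by limma-trend, and without the second that of Acvr1 was 0.063.

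Acvr1b, the main activin type I receptor, was not called, at 1787 ± 262 and 1522 ± 90.9, but was called lower without the third embryonic library (log2 fold change −0.32), by edgeR and under 3 other scalings. Bmpr1b, a BMP receptor, overlapped between groups, at 152 ± 20.1 and 145 ± 30.3 (95% interval of the log2 fold change −0.56 to 0.38). Bmpr1a made up 47.4 ± 1.60% of the type I level per kilobase at e15.5 and 45.5 ± 0.454% in islets, and Acvr1c 1.28 ± 0.0696% and 2.43 ± 0.107%.

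Among type II receptors and their co-receptor, the TGF-beta receptor gene Tgfbr2 fell farthest and the activin receptor gene Acvr2a was not called. Tgfbr2 stood at 4172, 4099 and 4398 across the embryonic libraries against 566, 621 and 479 in the islets (7.61-fold, log2 fold change −2.93 with SE 0.11, adjusted p = 4.8e-08 by limma-trend). Tgfbr3, the co-receptor betaglycan that presents TGF-beta and inhibin, fell from 1643, 1671 and 1873 to 507, 604 and 671 (log2 fold change −1.55, adjusted p = 4.0e-06 by limma-trend). Bmpr2, the BMP type II receptor, fell from 7795, 6578 and 8535 to 4306, 4247 and 3989 (log2 fold change −0.86, adjusted p = 8.3e-05 by limma-trend). In these 3 genes the groups did not overlap. Acvr2b, an activin receptor, fell from 421 ± 14.04 to 224 ± 12.4 (log2 fold change −0.91).

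Acvr2a, the other activin type II receptor, overlapped between the groups, at 3126 ± 165 and 3100.1 ± 90.6 (log2 fold change −0.01, 95% interval −0.19 to 0.17). It was called lower under quantile normalization (−0.27), upper quartile scaling (−0.27) and scaling without the most abundant genes (−0.25). Of the level per kilobase of these 5 genes, Tgfbr2 made up 27.7 ± 0.0842% at e15.5 and 6.83 ± 0.882% in islets, and Acvr2a 29.6 ± 2.53% and 54.9 ± 0.752%.

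The 2 Smads of the TGF-beta and activin arm both fell. Smad3 stood at 2955, 3129 and 2980.5 across the embryonic libraries against 464, 573 and 368 in the islets (6.45-fold, log2 fold change −2.71 with SE 0.15, adjusted p = 4.6e-07 by limma-trend). Smad2, which is activated by the same receptors, fell from 2515 ± 128 to 2021 ± 144 (log2 fold change −0.32, adjusted p = 0.0096 by limma-trend). Under upper quartile scaling the value of Smad2 was −0.57. Per kilobase, Smad3 was above Smad2 at e15.5 (545 and 286) and below it in islets (84.5 and 230.2).

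On the BMP arm Smad5 fell and Smad1 rose. Smad5 had 7529.7, 7947 and 7178 against 3779, 3860.2 and 4029 (1.94-fold, log2 fold change −0.96, adjusted p = 6.0e-06 by limma-trend). Smad1 had 1353, 1496 and 1443 against 2106, 2233 and 1964 (1.47-fold, log2 fold change 0.55, adjusted p = 3.8e-04 by limma-trend), and its rise was 0.29 on the log2 scale under upper quartile scaling, where it was still called. Smad9, the least abundant of them, was not called (130.2 ± 50.2 and 100.04 ± 22.5), though it was called lower without the second embryonic library (log2 fold change −0.69, adjusted p = 0.034 by limma-trend). Smad4, the common partner, was the most abundant Smad per kilobase in both groups (1173 and 1048) and was not called (log2 fold change −0.16), but it was called lower by edgeR (−0.22) and under 3 other scalings. Among these 6 Smads, Smad1 made up 6.98 ± 0.193% of the level per kilobase at e15.5 and 15.0 ± 0.999% in islets, and Smad3 16.6 ± 0.0767% and 3.77 ± 0.773%.

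Of the inhibitory Smads, Smad6, which acts mainly on BMP signals, fell from 461, 557 and 606 to 244, 230.0 and 137 (log2 fold change −1.44 with SE 0.22, adjusted p = 3.8e-04 by limma-trend). Smad7, which also blocks TGF-beta receptors, rose from 569, 569 and 539 to 789.8, 743 and 701 (log2 fold change 0.41, adjusted p = 0.0041 by limma-trend). Smad7 was no longer called once the 20 most abundant genes of each group were left out of the scaling (log2 fold change 0.18).

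Stretches before Tgfbr2 and Smad3 are shown because these genes fell farthest among the receptors and the Smads. From RefSeq on GRCm38.p6, they are chr9:116175364-116175613 and chr9:63757995-63758244, both on the minus strand and outside annotated exons. The Tgfbr2 gene spans chromosome 9, 116084293 to 116175360, and Smad3 chromosome 9, 63646767 to 63757994. Capitals mark CAGAC or its reverse complement GTCTG.
Tgfbr2: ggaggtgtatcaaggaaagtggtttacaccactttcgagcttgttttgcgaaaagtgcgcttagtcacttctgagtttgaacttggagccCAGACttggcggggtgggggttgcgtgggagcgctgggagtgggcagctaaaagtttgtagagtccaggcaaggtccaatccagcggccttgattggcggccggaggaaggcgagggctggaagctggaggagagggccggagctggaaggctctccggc
Smad3: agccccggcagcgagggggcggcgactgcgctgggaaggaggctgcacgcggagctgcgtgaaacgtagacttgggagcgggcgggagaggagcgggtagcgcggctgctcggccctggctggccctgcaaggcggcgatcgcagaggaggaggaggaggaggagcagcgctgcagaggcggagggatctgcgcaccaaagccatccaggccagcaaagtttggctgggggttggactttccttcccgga
The Tgfbr2 stretch held CAGAC on either strand 1 time and the Smad3 stretch held neither motif.

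All 4 Id genes, which encode inhibitors of basic helix-loop-helix factors and are textbook targets of BMP signals, fell. Id4 had 670.5, 793 and 626 across the embryonic libraries against 153, 196 and 150.2 in the islets (4.19-fold, log2 fold change −2.06 with SE 0.15, adjusted p = 3.2e-06 by limma-trend). Id1 had 609, 718 and 542 against 233, 203 and 129.8 (3.30-fold, log2 fold change −1.75, adjusted p = 9.3e-05 by limma-trend). Id2 had 3078, 3320.2 and 3001 against 1257, 1439.8 and 1250.0 (2.38-fold, log2 fold change −1.25, adjusted p = 2.5e-06 by limma-trend). In each Id gene all embryonic libraries lay above all islet libraries. Id3 fell from 1745 ± 130.1 to 772 ± 137 (2.26-fold, log2 fold change −1.19). Per kilobase the order was Id2, Id3, Id1 and Id4 by the mean of either group, and Id2 made up 43.2 ± 0.935% of their summed level at e15.5 and 46.2 ± 4.68% in islets. Of 9 other textbook targets 8 were tested, 1 rose, 5 fell and 2 were not called, and the share called (75%) was near the 72.8% of all genes tested.

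The stretch before Id4 is shown as that of the Id gene with the steepest fall. It is chr13:48260866-48261115 on the plus strand of GRCm38.p6, outside annotated exons and before the gene (chromosome 13, 48261228 to 48266026), and its capitals mark GGCGCC.
Id4: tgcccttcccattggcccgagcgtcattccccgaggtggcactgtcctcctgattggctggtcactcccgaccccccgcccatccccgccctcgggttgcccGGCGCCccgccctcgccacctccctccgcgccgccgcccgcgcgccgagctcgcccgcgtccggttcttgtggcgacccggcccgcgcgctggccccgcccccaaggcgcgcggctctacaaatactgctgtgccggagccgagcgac
GGCGCC was found 1 time before Id4 and Id2 each and 0 times before Id3. The stretches of Id2 and Id3 overlap annotated exons and are not printed, and Id1 had no entry in the set of RefSeq promoters used here. Over the pathway, GGCGCC was found in the 250-base stretches before 11 of 58 starts (19.0%) of the 47 genes with an entry in that set, against 9.59% of all 32851 stretches. The 58 are not all separate, since stretches of 1 gene can overlap. Those of Ltbp4 at chr7:27333649-27333898 and chr7:27333664-27333913 do, and both hold GGCGCC. For CAGAC on either strand the shares were 28 of 58 (48.3%) and 42.2%. The median share of G and C was 63.8% in the pathway stretches and 52.4% in all. A match of letters is a description and not a binding site.

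**Figure D3:**
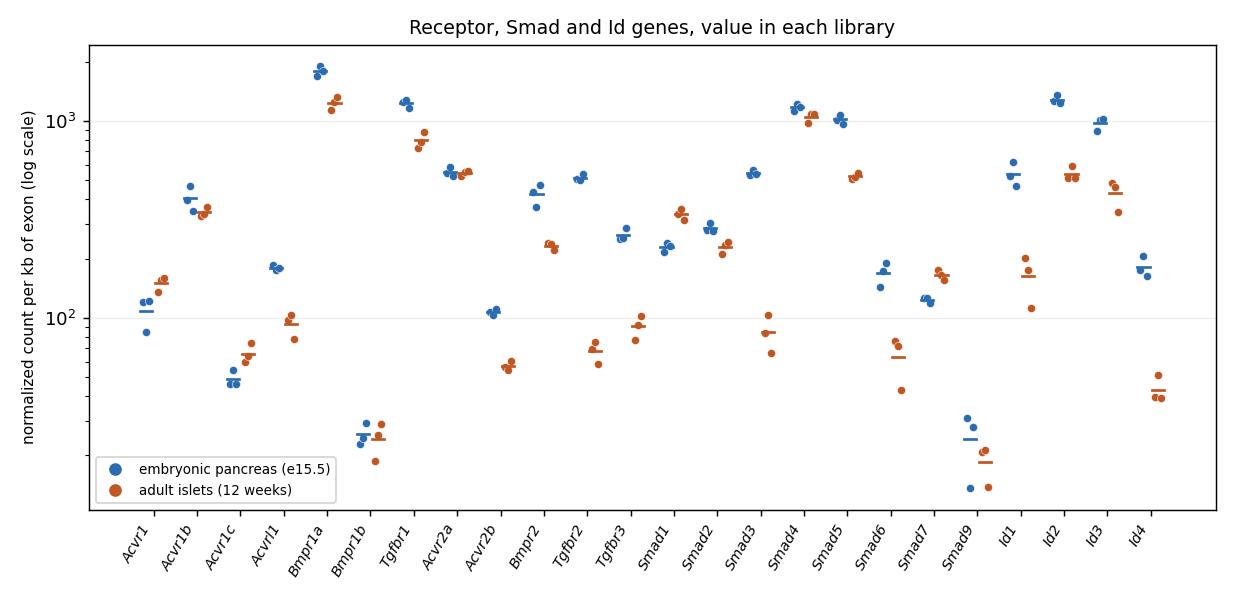
Normalized counts per kilobase of exon (vertical axis, log scale) of the receptor, Smad and Id genes in each library, blue for the 3 embryonic libraries and orange for the 3 islet libraries, with lines at the group means. Tgfbr2, Smad3 and Id4 lie far lower in the islets, Smad1 and Smad7 lie higher there on the authors' scaling, and Acvr2a and Bmpr1b overlap.

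Of the secreted antagonists, which bind ligands and keep them from receptors, Grem1, Nog and Fstl3 fell, and Chrd and Fst were not called. Grem1, which encodes the BMP antagonist gremlin, fell from 128, 86.6 and 105 to 16.5, 19.8 and 8.58 (7.12-fold, log2 fold change −2.81, adjusted p = 7.7e-05 by limma-trend). Nog, which encodes the BMP antagonist noggin, fell from 29.2 ± 11.8 to 2.50 ± 1.31 with 7 islet reads (12.1-fold, 95% counting interval 5.67 to 31.0). Fstl3, an activin binding protein, fell from 75.6 ± 10.3 to 38.4 ± 7.03 (log2 fold change −0.97), but shares 47.3% of its exonic length with the antisense gene Prss57 and was not called under quantile normalization (−0.49).

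Chrd, which encodes the BMP antagonist chordin, was not called, with 127, 119 and 189 against 147, 145 and 149 (log2 fold change 0.05, 95% interval −0.42 to 0.52). Fst, which encodes the activin antagonist follistatin, had 21.1, 24.0 and 30.3 against 37.3, 8.92 and 6.44 and was not called. Its first islet library was the highest of all 6, and without it Fst was called lower (log2 fold change −1.59, adjusted p = 0.0052 by limma-trend).

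Of the 4 genes of latent TGF-beta binding proteins, which tether TGF-beta to the matrix, 2 fell and 1 rose. Ltbp1 stood at 1894, 1119 and 2101 across the embryonic libraries against 149, 122 and 74.0 in the islets (14.8-fold, log2 fold change −3.88 with SE 0.30, adjusted p = 3.8e-06 by limma-trend). Ltbp4 had 1868, 1158 and 1776 against 209, 155 and 158 (9.22-fold, log2 fold change −3.18, adjusted p = 1.1e-06 by limma-trend). Ltbp2, a member of the family that does not bind latent TGF-beta, rose from 53.8, 49.0 and 85.9 to 207, 167 and 209 (3.09-fold, log2 fold change 1.65, adjusted p = 2.9e-04 by limma-trend). In Ltbp1, Ltbp2, Ltbp3 and Ltbp4 the second embryonic library was the lowest of its group. Ltbp3 was not called (672 ± 149.9 and 792 ± 53.7), but was called higher without the third embryonic library (log2 fold change 0.41, adjusted p = 0.038 by limma-trend). Per kilobase, Ltbp4 made up 50.8 ± 2.38% of the family at e15.5 and 18.0 ± 2.78% in islets, and Ltbp3 15.3 ± 1.22% and 58.8 ± 5.06%.

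Fstl1, a secreted glycoprotein made by mesenchymal cells, fell from 20018, 17246 and 17368 to 1363, 1157 and 849.8 (16.2-fold, log2 fold change −4.04 with SE 0.16, adjusted p = 7.5e-08 by limma-trend). Its relative Fstl5 rose from 96.1, 130.4 and 123.5 to 264, 275 and 205 (2.12-fold, log2 fold change 1.08, adjusted p = 8.1e-04 by limma-trend), and Fstl4 was not called (19.8 ± 2.19 and 22.3 ± 14.7). Bmp1, which despite its name encodes a metalloprotease that trims procollagen and cleaves chordin, fell from 3388, 3804 and 3949 to 2475, 2546 and 3197 (1.36-fold, log2 fold change −0.45, adjusted p = 0.0072 by limma-trend), by −0.70 on the log2 scale under upper quartile scaling. Beside the fall of Fstl1, the mesenchyme marker sum was 88.3-fold lower in the islets, and its part in the result was not tested.

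**Figure D4:**
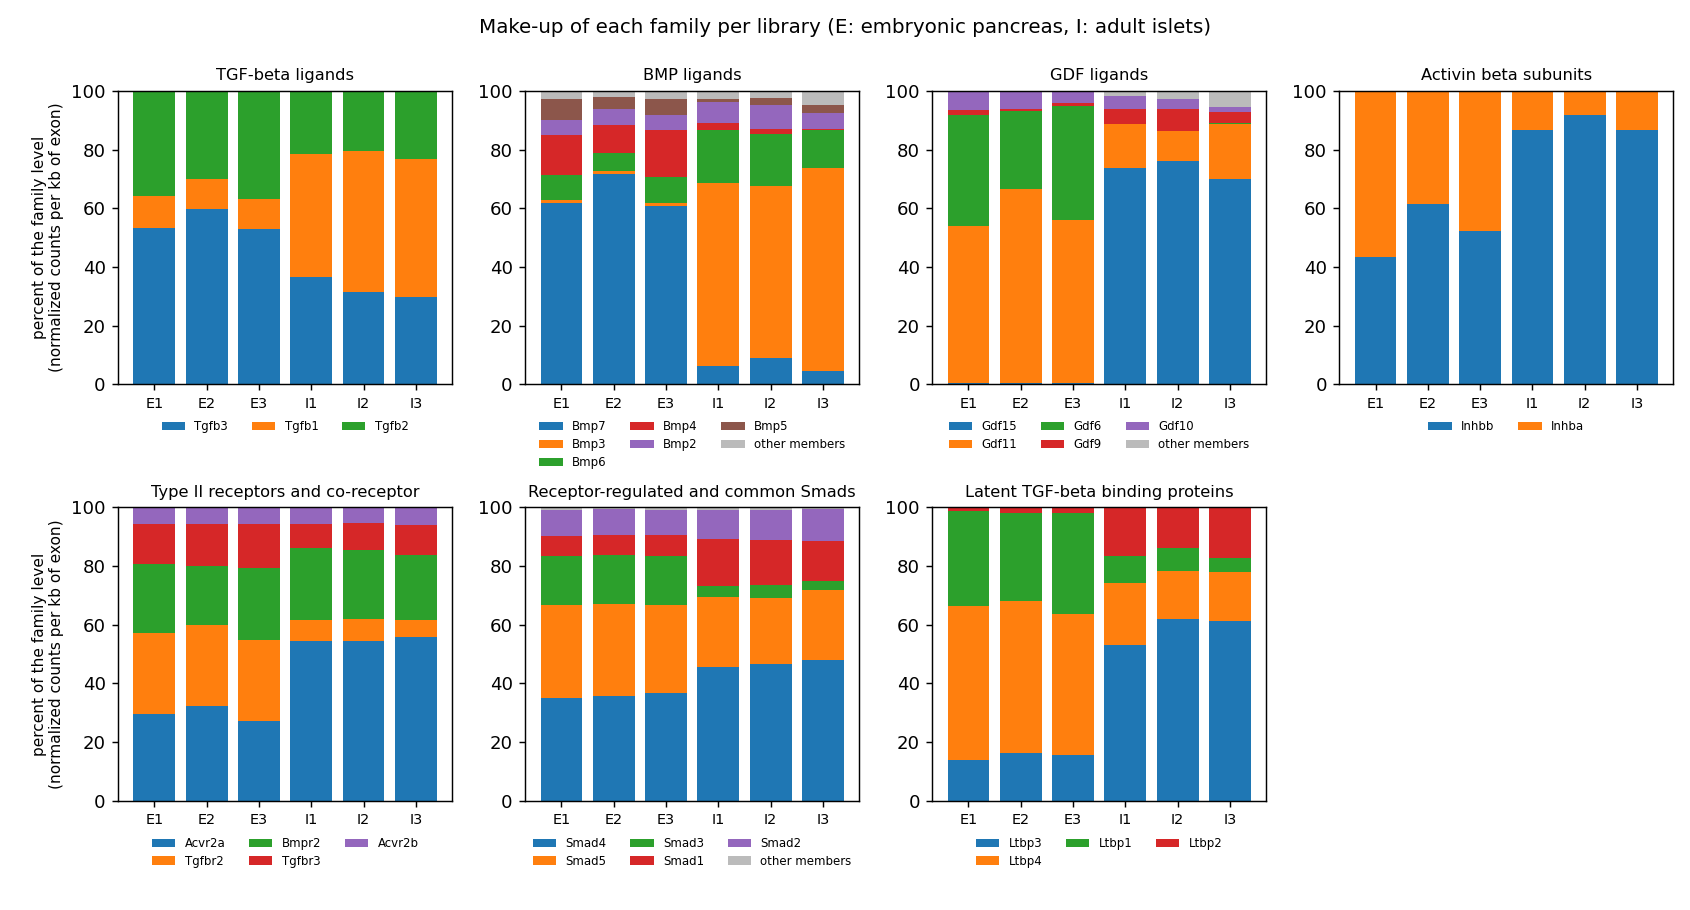
For 7 families, stacked bars give each gene's percent of its family's summed level in normalized counts per kilobase of exon (vertical axis, 0 to 100) for the embryonic libraries E1 to E3 and the islet libraries I1 to I3. The largest band is Bmp7 at e15.5 and Bmp3 in islets, Gdf11 and then Gdf15, and Ltbp4 and then Ltbp3.

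Each share was taken within a library, so that 1 scaling factor per library does not alter it, and shares were not recomputed under quantile normalization. In all, 72 shares in 13 families were compared. In these, 8 genes were counted in 2 families each, because the activin beta genes and the Smads without the inhibitory ones were also taken alone. For 54 of the 72 shares the values did not overlap between the groups, while library values of single genes did not overlap for 77.1% of all genes tested. Shares of a family depend on each other, so they are not separate results. With 3 libraries a group an exact two-sided permutation cannot give a p under 0.1, and the lowest Benjamini-Hochberg adjusted value was 0.133, so no share could pass 0.05. The summed level per kilobase went from 324 ± 63.5 to 68.1 ± 11.5 for TGF-beta ligands, from 3798 ± 173 to 2708 ± 205 for type I receptors and from 2977 ± 192 to 1177 ± 148 for Id genes.

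Other genes of the pathway, outside the symbols above, were counted from a list of 64. Of the 55 tested, 15 rose, 29 fell and 11 were not called, so that 80% were called against 72.8% of all genes tested, with a median log2 fold change of −0.37 against −0.03. Of 11 secreted modulators tested 9 fell and 2 rose. The BMP antagonist gene Chrdl1 had 383, 458 and 359 across the embryonic libraries against 2.20, 0.992 and 0 in the islets, which is 3 islet reads (377-fold, 95% counting interval 129 to 1829). Decorin, a matrix proteoglycan that binds TGF-beta, is encoded by Dcn, which fell from 16689, 13898 and 15409 to 599.7, 321 and 246 (log2 fold change −5.4, adjusted p = 2.9e-07 by limma-trend). The fibrillin gene Fbn2, whose product anchors latent growth factors, fell from 11435, 8022 and 14557 to 14.3, 11.9 and 16.1 (log2 fold change −9.52, adjusted p = 7.8e-09 by limma-trend).

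Lefty1 and Itgb8 were among the genes of that list that rose. Lefty1, which encodes an antagonist of Nodal, rose from 51.9, 62.6 and 46.6 to 261, 298 and 195 (log2 fold change 2.2, adjusted p = 2.2e-05 by limma-trend). Itgb8, an integrin subunit gene whose product helps release latent TGF-beta, rose from 748, 655 and 796 to 2887, 3299 and 2547 (log2 fold change 1.98, adjusted p = 7.9e-07 by limma-trend). In both genes the third islet library was the lowest of its group and still lay above every embryonic library.

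Libraries of a group were not equally ranked over the pathway genes. The second embryonic library was the lowest of its group in 26 of the 56 genes and the highest in 19, and the third islet library was the lowest in 30 and the highest in 20. Such ranks were not counted over all genes tested, so they may not be particular to the pathway. The third islet library also had the lowest mesenchyme and endothelial marker sums of its group, at 1379 and 8646. The second embryonic library had the highest beta cell sum of its group, at 11259.5, with the lowest mesenchyme sum, at 158594. Their part in the pathway values was not tested. Without the second embryonic library 12 pathway genes rose and 34 fell, and without the third islet library 9 rose and 33 fell. The calls over all 21653 genes tested moved as well. With all libraries 7845 rose and 7925 fell. Without the second embryonic library these counts were 8297 and 8163, and without the third islet library 7347 and 7432.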

How the data were processed

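RNA sequencing of 3 embryonic pancreas and 3 adult islet libraries was deposited as 1 table. The submitters' processing notes list TopHat 1.3.2, with CASAVA 1.8.2, DESeq2, Cufflinks 1.2.1 and the mm10 build, and the annotation is not given in the sources used here. Per the file headers, which name DESeq2, the library columns hold the authors' normalized signal, and the values behave as read counts divided by 1 factor per library. The deposited table also gives the authors' log2 fold change, its fold ratio, a test score and p-values with adjusted p-values, of which only calls named as the authors' were used. The 5 rows of unassigned reads (40.7 to 54.6% of a library) were left out.

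Values were whole multiples of 1 step within 0.01 reads, so that reads could be recovered. In the second islet library the step, 0.992, is near 1, but its values were not whole numbers (172.533 for Tgfb1). The test was limma-trend (limma 3.58.1, R 4.3.3) on log2(value + 1) with 4 residual degrees of freedom, adjusted over 21653 genes by Benjamini and Hochberg, in place of a count model because values are normalized. It was tested on simulated data in which far fewer genes changed than were called here and the library factors were known, so the scaling was not tested there. Levels were divided by exon length in GENCODE M21, which matched all 65 symbols. The genes, lists and alternatives were chosen with earlier results of these data known. Values in every library are given, per role, for the called genes with the 2 steepest rises and falls and a mean of at least 100 normalized counts in the higher group, and for the member with the highest mean; for the other pathway genes, for the 3 steepest each way. The stretches printed, and the library values of Inhba and Fst, were chosen after values were seen. Intervals on reads are exact, at 95%, and cover counting error only. Alternatives included edgeR 4.0.16 and DESeq2 1.42.0 on recovered reads (100% of values whole), which called 16072 and 15413 genes. The values of some genes that the rule names are not reported here, but the genes stay in the counts.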

Additional observations from a re-analysis of the deposited data

How the results depend on the processing

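Of the 45 pathway genes called, 40 (8 higher, 32 lower) kept their call and direction in every one of 18 alternatives in which they were tested. Acvr1, Acvr1c, Smad7 and Fstl3 were among those that lost the call under at least 1. The genes higher in the islets numbered 8 to 14 and those lower 31 to 36 over the alternatives, and leaving out each library gave 9 to 13 and 33 to 34. The 14 came without a filter, where all 65 pathway genes were tested and 49.6% of all genes were called. The 31 came with a minimum of 50 normalized counts, where 51 pathway genes were tested and 78.5% of all genes were called. Scaling without the most abundant genes and upper quartile scaling each gave 8 higher and 36 lower, with medians over all genes of −0.26 and −0.28, against −0.03. Over all 21653 genes tested, 6636 and 6344 were higher under these scalings, against 7845 on the authors' scaling. Those lower numbered 9506 and 9407, against 7925. Leaving out each library gave 7216 to 8297 higher and 7336 to 8163 lower over all genes tested. Of the genes not called, 6 turned direction in an alternative and stayed uncalled there. With 1 library left out the log2 fold changes ran from −0.0452 to 0.0296 for Acvr2a, from −0.221 to 0.0846 for Bmpr1b, from −0.0736 to 0.258 for Chrd, from −0.511 to 0.433 for Fstl4 and from −0.283 to 0.0226 for Tgfb1. By DESeq2 Chrd was −0.0074 and Fstl4 0.15, by edgeR they were −0.0448 and 0.111, without the most abundant genes and by upper quartile Chrd was −0.182 and −0.205, and with a pseudocount of 5 Fstl4 was 0.00124. Quantile normalization gave 0.241 for Bmpr1b, 0.439 for Fstl4, 0.0572 for Smad9 and 0.214 for Tgfb1. The cause was not tested. With the replicate number as a block 12 genes were higher and 33 lower, where 72.1% of all genes were called. Same-numbered libraries correlated at 0.037, 0.077 and 0.0054 in their deviations from group means, and the other pairs at −0.076 to 0.048. With so few libraries these values cannot decide whether the numbers pair them. Without division by length, the shares in embryonic pancreas and islets were 42.5 and 83.6% for Inhbb among activin beta genes, 1.99 and 77.3% for Bmp3, 68.8 and 4.39% for Bmp7, 0.228 and 59.3% for Gdf15, and 24.7 and 6.41% for Tgfbr2; 66 of 72 shares kept their direction. Genes with few islet reads, such as Gdf6, Bmp4 and Nog, have falls of uncertain size at this depth.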
